A study of Mus musculus with 6 samples.

Results

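The Zic genes encode transcription factors, and 4 of the 33460 genes with an FPKM value in these data are described here, namely *Zic1*, *Zic2*, *Zic4* and *Zic5*. They were chosen by symbol, after the Ensembl identifiers of the files were matched to the NCBIM37 annotation, and all 4 passed the filter on low values that decided which genes were tested. FPKM scales the sequenced fragments of a gene by its exon length and by the total mapped in the library, so levels of genes of different length can be set side by side on this scale. The 6 libraries came from brains of *NG2-DsRed/Pdgfrb-eGFP* mice at P6, in which the *Pdgfrb* promoter drives eGFP and the *NG2* promoter drives DsRed. Both groups carry both transgenes and no other treatment. One group was 3 libraries of cells positive for both reporters, sorted by FACS and referred to as mural cells, which comprise pericytes (PC) and vascular smooth muscle cells (VSMC). The other was 3 libraries of microvascular fragments, pulled down with CD31 antibodies on beads, which hold endothelial cells (EC) together with the mural cells attached to them. According to the methods, the brains of 3 mice were each cut along the midline, and one side went to each preparation. The sort selects for fluorescence of both reporters, but transcripts of other cell types remained in the sorted libraries. The labels do not say which sorted sample and which fragment sample came from the same mouse, nor whether each sample was a single animal.

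Zic proteins bind DNA through a block of C2H2 zinc fingers that is related to that of the Gli proteins, the mediators of Hedgehog signaling. They are best known from the early nervous system, where they take part in neural tube closure, in formation of the neural crest and in the growth of cerebellar granule neuron precursors. The genes lie in head-to-head pairs, so that *Zic1* and *Zic4* are neighbours, as are *Zic2* and *Zic5*. In humans, loss of *ZIC1* together with *ZIC4* has been linked to Dandy-Walker malformation of the cerebellum, and mutation of *ZIC2* causes holoprosencephaly.

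The question of the comparison was which transcripts are enriched in sorted mural cells relative to whole microvascular fragments, and the Zic genes split by chromosomal pair. *Zic1* and *Zic4* were enriched in mural cells 7.97-fold and 4.51-fold. *Zic2* was higher in mural cells by a smaller margin, 1.57-fold, and the 1.39-fold difference of *Zic5* did not pass the test. Enriched here means an adjusted p under 0.05 in limma on log2(FPKM + 1) together with a ratio of mean FPKM above 2, and lower means the same p with a ratio under 0.5. By this rule 2 of the 4 Zic genes were enriched and 0 were lower, while 6.43% of the 14801 genes tested were enriched and 10.1% were lower. With an adjusted p under 0.05 alone, 3 of the 4 were higher in mural cells, against 9.34% of all genes tested. The median ratio over all genes tested was 0.943. A gene near 0 in one preparation passes the filter through the other alone, so counts and medians over the tested genes of a list are descriptions.

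The libraries differed in depth and in their content of other cell types. The values of 1 fragment could be recovered from genes with a single transcript, and on protein-coding genes they gave approximately 5.40 to 5.97 M fragments per microvascular library and 1.03 to 2.36 M per mural cell library. *Zic1* is itself among the PC markers that the study names, and was left out of the list used here, which holds 11 others. These were all enriched, and their summed FPKM ranged from 3603 to 4626 in the mural libraries and from 340.5 to 531 in the fragment libraries. The list includes *Pdgfrb* and *Cspg4*, whose promoters drive the reporters used in the sort, so its direction is a check of the labels and not an independent result. EC transcripts had not been removed by the sort, since 12 EC markers summed to 1558 to 2032 FPKM in mural cells and 2104 to 2469 in fragments, with 2 of the 12 lower. Without fragment library 1 or 2 this count was 0, and without fragment library 3 or mural cell library 2 or 3 it was 1. All 8 microglia markers were lower (median ratio 0.0894). In bulk RNA, fewer cells of a type and less RNA per cell cannot be told apart.

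*Zic1* (ENSMUSG00000032368) occupies chr9:91252896-91260648 on the minus strand of NCBIM37 and has 3 annotated transcripts. Its level was 347, 398 and 385 FPKM in mural cell libraries 1, 2 and 3, and 46.5, 56.0 and 39.2 FPKM in fragment libraries 1, 2 and 3. The mural cell libraries lay within a narrow band, far above all fragment libraries. The means were 377 ± 26.7 FPKM and 47.3 ± 8.43 FPKM (SD, n = 3 each), and the fitted log2 fold change was 2.98 (SE 0.15, 95% confidence interval 2.63 to 3.33, limma adjusted p = 8.1e-05). Approximately 3320, 1597 and 1633 fragments stood behind the mural cell values and 984 to 1274 behind the fragment values, and the 95% Poisson interval of the first mural value ran from 335 to 359 FPKM. Among 13415 protein-coding genes tested, *Zic1* ranked 74th by mean level in mural cells and 1971st in fragments. Its ratio was above that of 98.8% of all genes tested.

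*Zic4* (ENSMUSG00000036972) starts beside *Zic1* and runs the other way, at chr9:91257251-91284186 on the plus strand, with 12 annotated transcripts. It was measured at 28.6, 28.3 and 25.1 FPKM in mural cell libraries 1, 2 and 3, and at 6.52, 5.77 and 5.90 FPKM in fragment libraries 1, 2 and 3. As for *Zic1*, the groups were far apart and the replicates close together. The means were 27.3 ± 1.94 and 6.06 ± 0.403 FPKM (SD, n = 3 each), with a log2 fold change of 2.00 (SE 0.16, interval 1.62 to 2.39, limma adjusted p = 2.7e-04). These values rest on fewer fragments, approximately 187, 78 and 73 in mural cells and 90 to 110 in fragments, when the longest transcript is taken as the length. With all exons merged, the estimates were 513, 213 and 200 in mural cells and 246 to 302 in fragments. Its ratio was above that of 97.0% of the genes tested.

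*Zic2* (ENSMUSG00000061524, chr14:122874604-122879074, plus strand, 3 transcripts) was the second most abundant member in mural cells. Its level was 77.1, 95.9 and 83.1 FPKM in mural cell libraries 1, 2 and 3, and 48.2, 59.7 and 55.1 FPKM in the corresponding fragment libraries. Each mural cell library was above each fragment library, which held for 16.5% of all genes tested, but the gap was narrow. The means were 85.3 ± 9.62 and 54.3 ± 5.76 FPKM (SD, n = 3 each), with a log2 fold change of 0.64 (SE 0.14, interval 0.32 to 0.96, limma adjusted p = 0.014), so that *Zic2* passed the test but stayed under the 2-fold limit. The result was marginal when single libraries were left out. Without fragment library 1, the one with the lowest *Zic2* value in its group, the log2 fold change was 0.56 and the limma adjusted p was 0.060. Without fragment library 3 these were 0.65 and 0.04996, and without mural cell library 2 they were 0.56 and 0.035.

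*Zic5* (ENSMUSG00000041703, chr14:122856017-122864899, minus strand, 2 transcripts) was the least abundant member in mural cells. It was measured at 7.28, 14.7 and 10.01 FPKM in mural cell libraries 1, 2 and 3, and at 6.63, 7.57 and 8.90 FPKM in fragment libraries 1, 2 and 3. The groups overlapped, since mural cell library 1 lay below fragment libraries 2 and 3. The means were 10.7 ± 3.76 and 7.70 ± 1.14 FPKM (SD, n = 3 each), and the log2 fold change of 0.38 had an interval from -0.27 to 1.04 (limma adjusted p = 0.38). Only about 59, 50 and 36 fragments stood behind the mural cell values. The 95% Poisson intervals, which cover counting error alone, ran from 5.54 to 9.39 FPKM in mural cell library 1 and from 10.9 to 19.4 FPKM in library 2, and so did not overlap with each other.

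**Figure D1:**
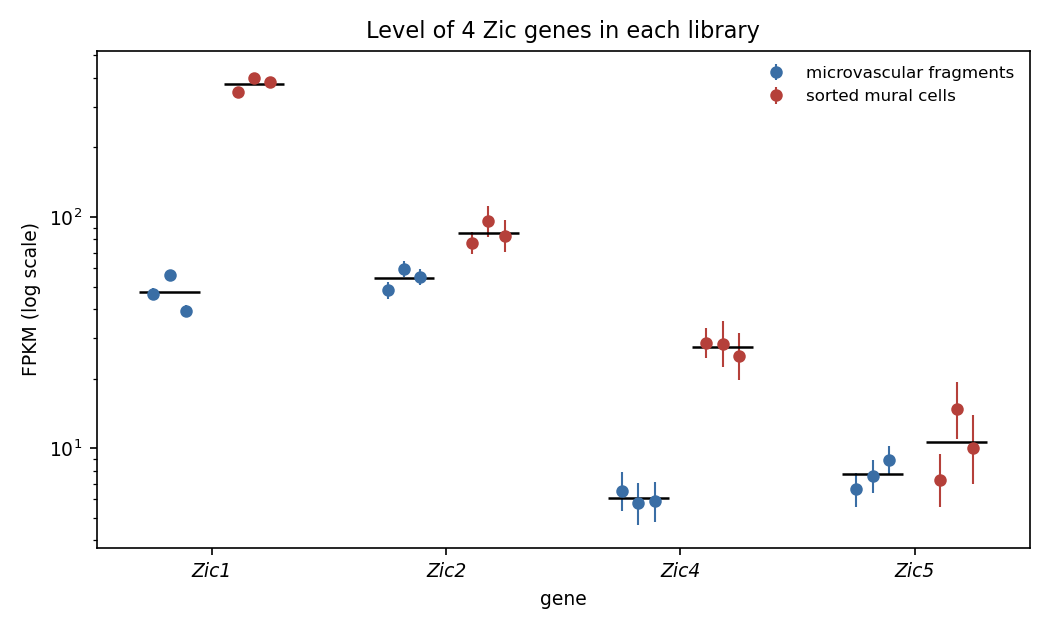
FPKM (log axis) of the 4 Zic genes in each of 3 microvascular fragment libraries (blue) and 3 mural cell libraries (red). Points are libraries, horizontal bars are group means, and vertical lines are 95% Poisson intervals for counting error. *Zic1* and *Zic4* in mural cells lie far above the fragments, *Zic2* lies above them by a small margin, and the *Zic5* groups overlap.

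The order of the family differed between the preparations. In mural cells the order was *Zic1*, *Zic2*, *Zic4* and *Zic5*, and the steps between neighbours were 4.42-fold, 3.12-fold and 2.56-fold. At none of these steps did the libraries of the neighbouring genes overlap. In fragments *Zic2* was 1.15-fold above *Zic1* by the means, with overlapping ranges, although *Zic2* was the higher of the pair in 3 of 3 libraries. *Zic1* was then 6.14-fold above *Zic5*, and *Zic5* 1.27-fold above *Zic4* without overlap. These comparisons are descriptions, and the values of one library share its depth and scaling.

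Ratios between members within a library remove any factor that scales a whole library. The ratio of *Zic1* to *Zic2* was 4.50, 4.16 and 4.64 in mural cell libraries 1, 2 and 3, and 0.964, 0.939 and 0.712 in fragment libraries 1, 2 and 3. It was thus 5.12-fold higher in mural cells, with no overlap between the groups. Within the first chromosomal pair, the ratio of *Zic1* to *Zic4* was 12.1, 14.1 and 15.3 in the mural libraries against 7.13, 9.71 and 6.65 in fragments, a 1.79-fold difference without overlap. By their own fits both genes of this pair were enriched in mural cells, with the larger estimate for *Zic1*. Within the other pair, the ratio of *Zic2* to *Zic5* was 10.6, 6.52 and 8.30 in the mural libraries against 7.28, 7.89 and 6.19 in fragments, and the groups overlapped. Of 7 ratios compared, 5 did not overlap between the groups, and each of the 5 had the smallest p that an exact two-sided permutation test of 3 libraries against 3 allows (p = 0.1, adjusted 0.14 over the 7). The *Zic2* to *Zic5* ratio had an exact p of 0.4. Ratios that share a gene are not independent. A ratio differs between the groups when the fold changes of its 2 genes differ, so the count restates those fold changes. Single genes were apart without overlap in 16.5% (mural cells higher) and 24.5% (mural cells lower) of all genes tested.

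The seventh ratio set *Zic1* against the geometric mean of the 11 PC markers. In mural cell libraries 1, 2 and 3 it was 1.60, 1.50 and 1.70, whereas fragment libraries 1, 2 and 3 gave 1.51, 2.05 and 1.86. The ranges overlapped, and the ratio was 0.890-fold in mural cells relative to fragments (exact permutation p = 0.3, adjusted 0.35). The single PC markers had enrichments from 6.47-fold (*Cspg4*, the gene for NG2) to 12.5-fold (*Acta2*, smooth muscle actin), and the 7.97-fold of *Zic1* lay inside this range while the 4.51-fold of *Zic4* lay below it. Since *Zic1* was known as a PC marker to the study, its place among them is a description.

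**Figure D2:**
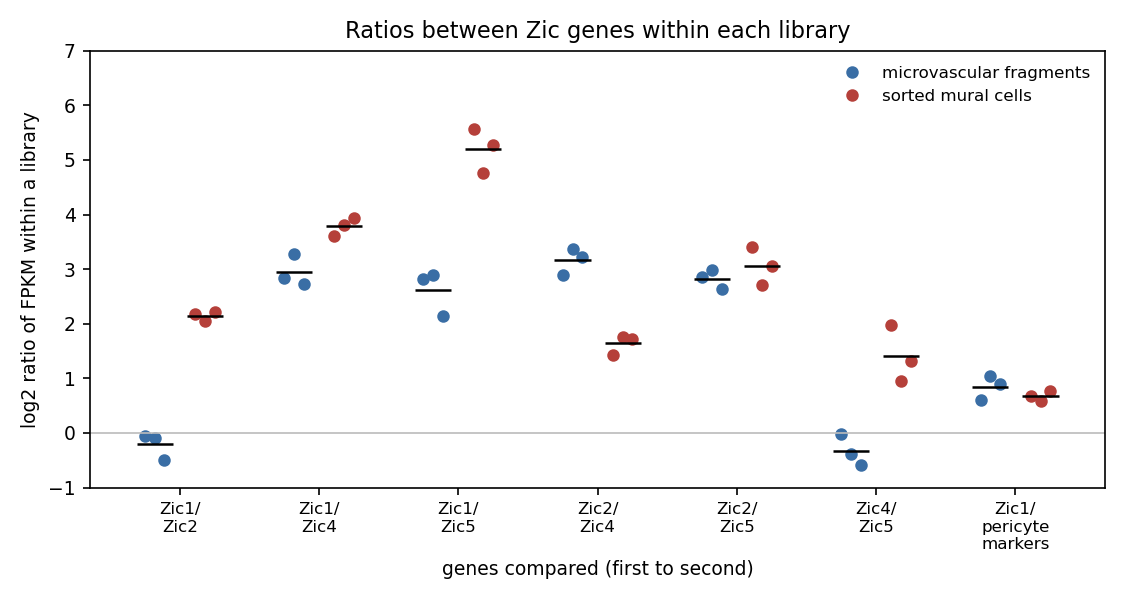
Log2 ratio of FPKM between pairs of genes within each library, for 6 pairs of Zic genes and for *Zic1* against the geometric mean of 11 PC markers. Points are the 3 fragment libraries (blue) and the 3 mural cell libraries (red), and bars are group means. The groups are apart for every pair except *Zic2* to *Zic5* and *Zic1* to the PC markers.

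The genes closest to *Zic1* and *Zic4* in pattern were found by the Euclidean distance over the 6 libraries, in log2(FPKM + 1) centred on each gene's mean, among 13414 protein-coding genes. The nearest to *Zic1* was *Dact1*, a regulator of Wnt signaling (distance 0.20 log2 units, 9.52-fold higher in mural cells), and the next was *Foxd1*, a forkhead transcription factor of stromal progenitors (0.24, 8.95-fold). The syndecan *Sdc2* (0.28, 8.19-fold), *Arhgef25* (0.32, 7.91-fold) and the PDZ and LIM domain protein gene *Pdlim1* (0.33, 8.36-fold) followed. The nearest to *Zic4* were *Frk*, a tyrosine kinase of the Src type (0.15, 6.01-fold), and *F2r*, a thrombin receptor (0.17, 4.31-fold). They were followed by the kelch-like gene *Klhl23* (0.20, 4.08-fold), the DENN domain gene *Dennd2a* (0.26, 4.41-fold) and the extracellular matrix gene *Ecm2* (0.27, 4.12-fold). Neither Zic gene was among the 5 nearest of the other.

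The Gli and Glis genes share the zinc finger type of the family. Of the 6 listed genes 5 were tested, 2 were enriched and 0 were lower, and their median ratio was 2.70. Over all genes tested, 6.43% were enriched and 10.1% were lower, here and for the lists below. *Gli1*, a transcriptional target and effector of Hedgehog signaling, was at 1.95, 5.91 and 5.49 FPKM in mural cell libraries 1, 2 and 3 and at 0.379, 0.410 and 1.49 FPKM in fragment libraries 1, 2 and 3 (5.86-fold, limma adjusted p = 0.038). *Gli2*, the main activator of the pathway, was at 5.70, 3.83 and 4.34 FPKM in the mural libraries and at 0.579, 1.42 and 1.40 FPKM in fragments (4.08-fold, limma adjusted p = 0.015). Both were low in all libraries and needed the mural cell libraries to pass the filter. For both, each mural cell library was above each fragment library, which held for 16.5% of all genes tested. The calls depended on single libraries, since 0 genes of the list were enriched without fragment library 1 and 1 gene without fragment library 2 or 3 or mural cell library 3.

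*Gli3*, largely a repressor in the absence of Hedgehog ligand, was the most abundant Gli gene and showed 13.8, 6.29 and 16.1 FPKM in mural cells against 5.50, 3.66 and 4.24 FPKM in fragments. Its groups did not overlap, yet its 2.70-fold ratio did not pass the test (limma adjusted p = 0.054). The Krüppel-like zinc finger genes *Glis2* (1.38-fold, adjusted p = 0.25) and *Glis3* (1.03-fold, adjusted p = 0.75) did not pass either. *Glis1* was under the filter, with 4.71 FPKM in mural cell library 3 and 0 in the other mural cell libraries.

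Regulators of the neural crest were the second list, since Zic genes act at the neural plate border. Of 20 genes 12 were tested. Of these 4 were enriched and 1 was lower, against 6.43% and 10.1% of all genes tested. The other 7 were called neither, and the median ratio was 1.29. The enriched genes were *Tfap2a* (12.6-fold, 7.65 ± 1.25 against 0.606 ± 0.753 FPKM), *Twist1* (8.43-fold, 17.9 ± 1.89 against 2.12 ± 1.52 FPKM), *Tfap2b* (6.37-fold) and *Snai2* (3.14-fold, 27.4 ± 7.49 against 8.73 ± 1.97 FPKM; SD, n = 3 per group throughout). *Tfap2a* and *Tfap2b* encode AP-2 factors of neural crest induction, and *Twist1* and *Snai2* encode factors of mesenchymal and migrating crest cells. *Tfap2a*, *Tfap2b* and *Twist1* also needed the mural cell libraries to pass the filter. The homeobox gene *Msx1* was lower (0.297-fold). The neural plate border genes *Pax3* and *Pax7*, and *Foxd3*, a factor of early crest cells, were under the filter, with mean levels of 0.0513, 0 and 0 FPKM in mural cells.

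Among 26 transcription factors of vascular mural cells and their surroundings, 23 were tested. Of these 13 were enriched and 1 was lower, against 6.43% and 10.1% of all genes tested. Their median ratio was 2.33. The largest ratios were those of *Foxs1*, a forkhead factor of PC (13.5-fold), *Tbx15* (12.3-fold) and *Tbx18*, a T-box factor of mural cells and epicardium (11.8-fold). The lower gene was *Gata6*, a factor of smooth muscle and endoderm, at 0.377, 0 and 0 FPKM in mural cell libraries 1, 2 and 3. It passed the filter through the fragment libraries alone (1.68, 2.61 and 2.23 FPKM) and was not tested with a filter at 5 FPKM. When the 4 Zic genes and the transcription factors of these lists were ranked by mean FPKM in mural cells, 56 genes in all, *Zic1* was first. The next was *Epas1*, the hypoxia-inducible factor HIF-2α, at 339 ± 22.1 FPKM (SD, n = 3), and its highest library, at 362 FPKM, was above the lowest library of *Zic1*, so that the ranges of the top genes overlapped. *Ets1* (174 FPKM) and *Nr2f2*, the orphan nuclear receptor COUP-TFII (156 FPKM), followed. *Zic2* took rank 10, *Zic4* rank 24 and *Zic5* rank 31.

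A list of 16 Zic partners and reported target genes had 12 tested members, with a median ratio of 1.09. Of these 2 were enriched and 2 were lower, against 6.43% and 10.1% of all genes tested, and 8 were neither. *Axin2*, a feedback inhibitor and target of Wnt signaling, was at 115 ± 12.8 FPKM in mural cells and 49.5 ± 9.13 FPKM in fragments (SD, n = 3 each), a 2.33-fold enrichment. *Nodal*, a TGF-β family ligand, was low and 4.79-fold enriched (6.97 ± 1.39 against 1.45 ± 0.143 FPKM). *Apoe*, the apolipoprotein gene, was lower in mural cells at 0.311-fold, and the ephrin receptor gene *Epha4* at 0.446-fold. The call of *Epha4* was marginal (limma adjusted p = 0.049), and the list held 1 lower gene in place of 2 in each fit without 1 library except that without mural cell library 3. *Mdfi*, whose product binds Zic proteins and holds them in the cytoplasm, showed 0.718-fold (limma adjusted p = 0.17). *Atoh1* and *Wnt3a* were at 0 FPKM in all mural cell libraries.

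**Figure D3:**
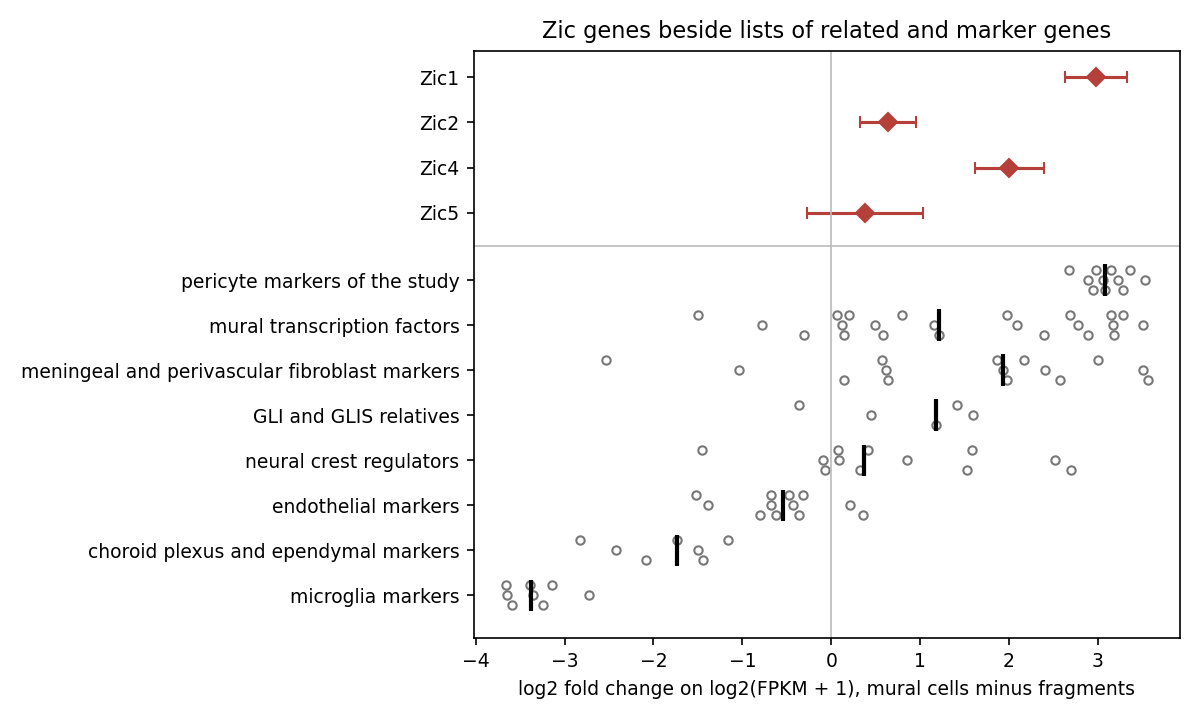
Log2 fold change on the log2(FPKM + 1) scale, mural cells minus fragments, for the 4 Zic genes (red diamonds with 95% confidence intervals from limma) and for the tested genes of 8 lists (open circles, with the list median as a black bar). *Zic1* lies within the span of the PC markers, *Zic4* lies below it, and the intervals of *Zic2* and *Zic5* lie below both.

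Zic genes are also known from other cells of the young brain, and the markers of those cells were therefore measured beside them. Of 16 markers of meningeal and perivascular fibroblasts, 15 were tested, with a median ratio of 5.53. Of these 9 were enriched and 0 were lower, against 6.43% and 10.1% of all genes tested. *Foxc2*, 1 of the 16, is also in the list of mural transcription factors. The summed FPKM of the markers was 719 to 1043 in the mural libraries against 125.04 to 167 in fragments. This sum moved in the same direction as *Zic1* and *Zic4*. Single markers were mixed. Of the 6 tested markers called neither, *Ptgds* (0.283-fold) and *Crabp2* (0.286-fold) had ratios under 1 and the others above 1. The study lists *Col1a2*, *Col3a1*, *Ogn* and *Nov* among its mural cell-enriched genes. That catalogue rests in part on these libraries, so a place in it cannot tell mural cells from fibroblasts. The study also states that fibroblasts in the meninges and around larger vessels express PDGFRβ. The part of such cells in the Zic values was not tested.

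Cerebellar granule neurons express *Zic1* and *Zic2*. Of 14 markers of these neurons only 3 passed the filter, 1 enriched (*Etv1*, 2.53-fold) and 1 lower (*Reln*, 0.179-fold). *Reln* needed the fragment libraries to pass the filter. Either count fell to 0 in 5 of the 6 fits without 1 library, the enriched one in all but that without mural cell library 3 and the lower one in all but that without fragment library 1. The sum was 24.2 to 40.9 FPKM in mural cells and 17.5 to 60.4 FPKM in fragments. Of the 14 markers, *Atoh1*, *Barhl2*, *Cbln1*, *Gabra6* and *Tlx3* were at 0 FPKM in all 3 mural cell libraries, and *Gabra6* was at 0 in the fragments too. Others were above 0 in all mural cell libraries. *Pax6* was at 4.42, 8.70 and 9.73 FPKM there, against 4.58, 7.84 and 17.9 FPKM in fragment libraries 1, 2 and 3. *Cntn2* (0.334 to 0.396 FPKM) and *Fat2* (0.0944 to 0.198 FPKM) were near 0 and under the filter. In fragment libraries 1, 2 and 3 *Cntn2* was at 0.453, 0.700 and 7.13 FPKM and *Fat2* at 0.154, 0.0499 and 1.09 FPKM. The part of such cells in the Zic values was not tested. The highest sum belonged to fragment library 3, in which *Neurod1*, a differentiation factor of granule neurons, stood at 4.93 FPKM against 0 and 0.126 FPKM in the other fragment libraries. Without this library the log2 fold change was 2.86 for *Zic1*, 0.65 for *Zic2* and 1.99 for *Zic4*.

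Markers of choroid plexus and ependyma moved the other way, with 5 of 7 tested genes lower, *Ttr*, *Folr1*, *Kl*, *Otx2* and *Kcne2*, and sums of 206 to 249 FPKM in mural cells against 672 to 1436 FPKM in fragments. The last 3 passed the filter through the fragment libraries alone, and 2 genes of the list were lower with a filter at 5 FPKM. Of 9 tested neuron markers 1 was lower, and among 8 astrocyte and 6 oligodendrocyte progenitor markers tested 0 were called in either direction. The astrocyte sum was uneven, from 224 to 809 FPKM in mural cells, and its highest value was that of mural cell library 3. Without this library 2 astrocyte and 3 neuron markers were lower, and without mural cell library 1, 4 neuron markers were, while that count was 0 without mural cell library 2 or fragment library 3. Without mural cell library 3 the log2 fold change was 2.96 for *Zic1*, 0.66 for *Zic2*, 2.06 for *Zic4* and 0.40 for *Zic5*.

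The surroundings of the pairs were examined within 1 Mb on either side. Near *Zic1* and *Zic4* there were 3 other protein-coding genes, of which 2 were tested and 1 was enriched. This was *Plscr1*, a phospholipid scramblase gene 860709 bases away, at 4.92, 5.40 and 5.11 FPKM in mural cells and 2.05, 2.85 and 2.45 FPKM in fragments (2.10-fold, limma adjusted p = 0.045). Its neighbour *Plscr2* did not differ by the test (0.953-fold, adjusted p = 0.76). Near *Zic2* and *Zic5* there were 14 protein-coding genes, of which 9 were tested and 0 were enriched, and 1 was lower. That gene was *Gpr183*, an oxysterol receptor of immune cells, at 1.19 FPKM in mural cells and 14.03 FPKM in fragments. It needed the fragment libraries to pass the filter. The closest protein-coding genes to this pair, *Gm5089* at 5680 bases and *Gm10837* at 10734 bases, were under the filter, and the lincRNA gene *2610035F20Rik* between *Zic5* and *Zic2* had a ratio of 0.942 (limma adjusted p = 0.88).

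**Figure D4:**
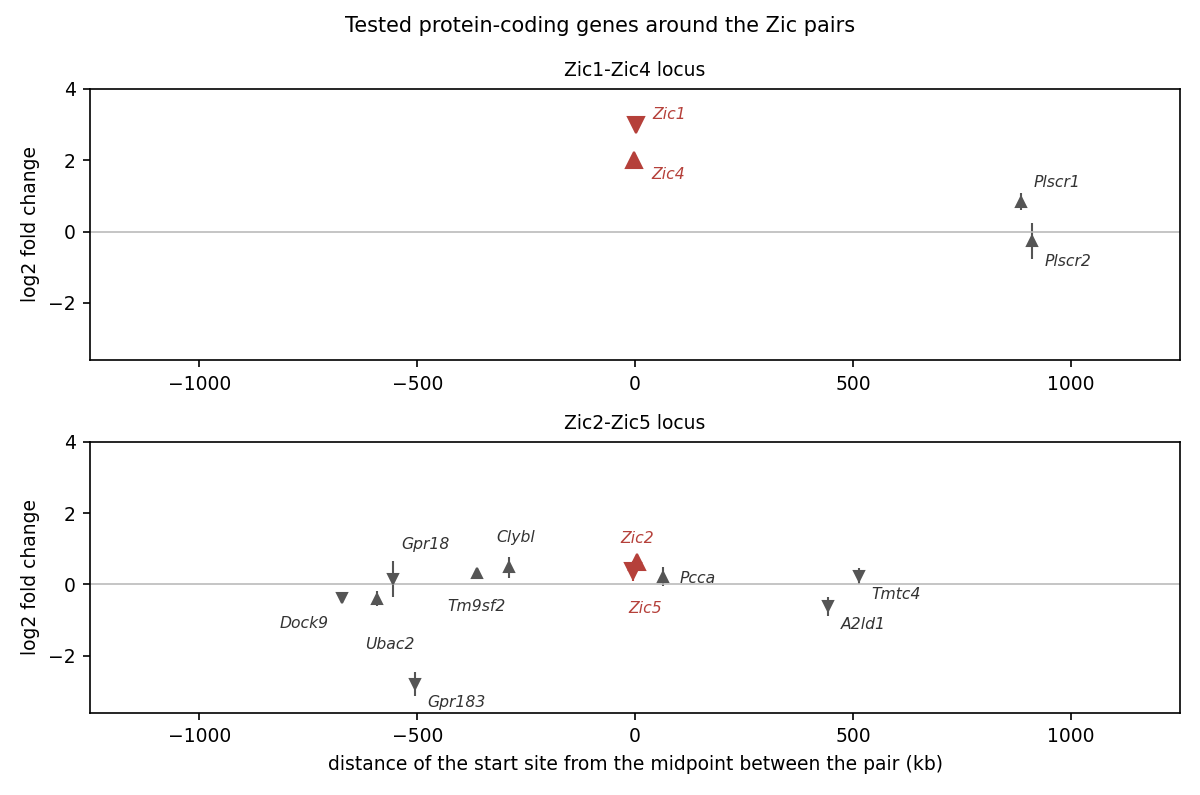
Log2 fold change (mural cells minus fragments, error bars are SE) of tested protein-coding genes around the *Zic1*-*Zic4* pair (top) and the *Zic2*-*Zic5* pair (bottom), by the distance of the start site from the midpoint of the pair in kb. Red marks Zic genes and gray the others, and triangles point up for plus-strand and down for minus-strand genes. Next to *Zic1* and *Zic4* the only other enriched gene is *Plscr1*, and in the lower panel *Gpr183* is the only gene called.

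Start sites of *Zic1* and *Zic4* lie 3397 bases apart and those of *Zic2* and *Zic5* 9705 bases apart. In the genome as annotated, 1417 head-to-head pairs with start sites at most as far apart had both genes tested, and 15 of them (1.06%) had both genes enriched while 65 had exactly 1. Of the pairs with at least 1 gene enriched, 18.8% had both enriched. *Zic1* and *Zic4* are 1 of the 15 pairs with both enriched. The median difference between the log2 ratios of 2 paired genes was 0.51. It was 0.82 for *Zic1* and *Zic4*, and 69.8% of pairs differed by less, whereas it was 0.18 for *Zic2* and *Zic5*, with 21.1% of pairs below it.

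*Zic1* and *Zic4* overlap at their 5′ ends on opposite strands, and their exons share 60 bases (chr9:91257297-91257356), through 1 of the 12 *Zic4* transcripts. The library kit keeps strand, but whether strand was used in counting is not given in the sources used here, so fragments from these bases could have been counted for either gene. The exons of *Zic2* and *Zic5* share 0 bases. The longest stretch of identical sequence between mature transcripts of any 2 of the 4 genes was 20 to 42 bases long.

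The sequence upstream of *Zic1*, the member with the highest level and the largest enrichment, is shown beside that of *Zic5*, which did not pass the test, so that both ends of the family can be compared. Bases come from the RefSeq promoter table (GRCm38.p6), where 3 of the 4 genes matched, and each printed stretch was found once, without mismatch, in the NCBIM37 genome. Only bases outside annotated exons are shown, on the strand of the gene, and capitals mark a GC box (GGGCGG) or a CCAAT box (CCAAT) found on either strand.
Zic1: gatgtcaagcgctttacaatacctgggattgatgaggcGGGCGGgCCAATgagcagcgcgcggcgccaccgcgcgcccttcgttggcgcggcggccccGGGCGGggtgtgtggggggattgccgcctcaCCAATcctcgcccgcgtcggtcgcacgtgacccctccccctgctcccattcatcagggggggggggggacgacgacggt
Zic5: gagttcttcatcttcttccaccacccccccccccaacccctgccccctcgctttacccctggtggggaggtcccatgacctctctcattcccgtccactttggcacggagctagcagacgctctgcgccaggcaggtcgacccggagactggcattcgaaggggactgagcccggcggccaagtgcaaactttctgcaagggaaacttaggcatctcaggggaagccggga
The *Zic1* stretch (chr9:91260649-91260856, minus strand) ends 43 bases before the RefSeq start, and the *Zic5* stretch (chr14:122864900-122865130, minus strand) ends 20 bases before it. The first holds 2 GC boxes and 2 CCAAT boxes and has a GC content of 71.2%. The second holds neither and has a GC content of 62.3%. In the whole window of 300 bases, *Zic1* had 3 GC boxes and *Zic5* had 1, and neither had TATAAA or CCTGCTG, the core of the motif bound by Zic proteins. The window of *Zic4* was not shown because at most a short stretch of it lies outside annotated exons, and it held none of the 4 motifs. Over 32851 windows of the table, counted on both strands, CCAAT was present in 37.4%, GGGCGG in 35.7%, TATAAA in 13.6% and CCTGCTG in 10.5%.

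The proteins encoded by the longest annotated coding sequences are 447 (Zic1), 529 (Zic2), 353 (Zic4) and 622 (Zic5) residues long. In each of them 4 stretches matched the C2H2 pattern searched for, which allows only short spacing within each cysteine and histidine pair. A finger with wider spacing would be missed, so 4 is not a count of all fingers. Across the stretch spanned by these matches, which may leave out part of the zinc finger block, Zic1 and Zic2 were 99.1% identical. The other pairs were 90.5 to 93.9% identical. When the whole proteins were aligned and gaps were left out, the identity of Zic1 and Zic2 was 76.7% over 442 residues. The lowest, between Zic2 and Zic5, was 54.0% over 487 residues. The most similar proteins were thus those of *Zic1* and *Zic2*, which are in different chromosomal pairs and had enrichments of 7.97-fold and 1.57-fold.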

How the data were processed

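RNA-seq libraries were made with a stranded total RNA kit (SMARTer) after depletion of rRNA, and all were run together, paired-end, on the same lane. The authors' pipeline was TopHat2 2.0.4 for alignment to NCBIM37, Picard 1.92 for removal of duplicates and Cufflinks 2.2.1 for FPKM. The deposited values are FPKM, 1 per Ensembl gene and library, from 33484 lines, of which 9 identifiers were repeated. They were close to a common scale (median-ratio factors 0.992 to 1.02). FPKM are not counts, so log2(FPKM + 1) was fitted in limma 3.58.1 (R 4.3.3, trend on intensity), and p-values were adjusted after Benjamini and Hochberg. The fit covered 14801 genes that reached an FPKM of 1 in 3 or more samples. Fold values in the text are ratios of mean FPKM. Fitted log2 fold changes include the pseudocount of 1 and so understate changes of low genes. P-values measure the spread between these samples, which may be partly technical. Single ratios were compared with an exact permutation test in SciPy 1.17.1.

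Fragments behind a value were estimated from the value of 1 fragment in genes with a single transcript, where 97.8 to 98.6% of low values were whole multiples within 0.05, and from the longest transcript of the gene. Simulated fragments for 15208 genes, with 200 genes changed 4-fold, were used to test the fit. It recovered 58% of raised and 43% of lowered genes, and 32 of 133 calls were false, 30 of them lower, and in 29 of these 30 the simulated mural values were all 0.

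The genes named are the Zic genes, the 5 nearest in pattern to each called Zic gene, called and nearest protein-coding genes within 1 Mb, all Gli and Glis genes and, for each list, up to 4 called members of largest or smallest fold change or highest mural level. The PC marker values, *Epas1*, *Ets1*, *Mdfi*, *Pax3*, *Pax7*, *Foxd3*, *Wnt3a*, *Neurod1*, *Kl*, *Otx2*, *Kcne2*, the fibroblast markers named and the granule neuron markers given were added after their values were seen. The Zic genes, the lists and the tests were chosen with earlier results of these data known. 1 gene of the family is not reported here. The annotation version used for FPKM is not given in the sources used here. Other steps used Python 3.11.15, pandas 2.3.3, NumPy 2.4.6 and Biopython 1.88.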

Additional observations from a re-analysis of the deposited data

How the results depend on the processing

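All 4 Zic genes kept a positive log2 fold change in the 15 alternative fits, and 2 of the 4 were enriched in each. The range was 2.86 to 3.11 for *Zic1* (limma adjusted p at most 0.0013), 1.97 to 2.15 for *Zic4* (at most 0.0036), 0.56 to 0.71 for *Zic2* and 0.14 to 0.60 for *Zic5* (0.14 to 0.72). *Zic2* passed in 14 of 15, the exception being the fit without fragment library 1 (0.56). Over all genes, leaving out 1 library gave 711 to 1002 enriched and 988 to 1751 lower genes (952 and 1493 with all libraries), and a filter at an FPKM of 5 gave 948 lower genes because fewer genes were tested. Quantile normalization moved the split of calls from 38.9% enriched and 61.1% lower to 50.9% and 49.1%, and the median log2 fold change by 0.12. With merged exons as gene length, the mean number of fragments was 363 (mural cells) and 967 (microvascular fragments) for *Zic2* and 309 and 275 for *Zic4*.

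Deviations of samples with the same number correlated weakly across genes (r from 0.020 to 0.082), and 6 of 6 samples correlated best with their own number. These values do not settle whether a number marks a mouse. Since the labels do not say so, the numbers were not taken as pairs in the main fit. With the replicate number as a block, 900 genes were enriched and 1344 lower, and the limma adjusted p was 4.7e-04 for *Zic1*, 0.017 for *Zic2*, 0.0022 for *Zic4* and 0.37 for *Zic5*, which changed no call. Within same-numbered samples, the log2 difference in the *Zic2* to *Zic5* ratio was 0.54 for samples numbered 1 and -0.28 for those numbered 2, and that of *Zic1* to the PC markers was 0.083 and -0.45. The reversals (samples numbered 2 and 1) were not tested for a cause. The other ratios kept their direction. Among them, the block values that moved beyond the replicate spread came from samples numbered 2 and 3. These were 2.15 and 2.70 for *Zic1* to *Zic2*, 0.54 and 1.21 for *Zic1* to *Zic4* and 1.87 and 3.13 for *Zic1* to *Zic5*. The *Zic5* values in mural cells rest on about 36 to 59 fragments.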
